A study of Mus musculus with 17 samples.

Results

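Transcripts of 9 genes that build iron-sulfur clusters in mitochondria (Nfs1, Lyrm4, Iscu, Hscb, Glrx5, Isca1, Isca2, Nfu1 and Bola3) were measured in mouse hearts carrying somatic mutations of mitochondrial DNA. The genes were taken by name from a table of 56748 genes, by a rule that uses no measured value. The set was nevertheless chosen with earlier results of these data known. All 9 genes were expressed well enough to be tested. Bulk RNA-seq was done on 17 hearts from mice aged 12 to 16 months, 1 library per heart, comprising 9 hMut hearts and 8 control hearts (Ctrl). hMut mice were homozygous for the Polg iMut allele and heterozygous for Ckmm-cre. In the iMut allele a floxed wild-type Polg cDNA with a stop cassette sits upstream of a mutated exon. Excision by cre switches the gene to a proofreading-deficient mitochondrial DNA polymerase. Ckmm-cre is driven by the muscle creatine kinase promoter and is active in cardiomyocytes and other striated muscle, so other cells of the heart keep the wild-type cDNA. The labels call the 8 control mice Ctrl without a further genotype, and sex is not stated for either group.

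Iron-sulfur clusters are cofactors of respiratory complexes I, II and III, of aconitase, and of the enzyme that makes lipoate. In mitochondria the cysteine desulfurase NFS1, held in an active complex by LYRM4, takes sulfur from cysteine, and ISCU is the scaffold on which sulfur and iron are joined. The cochaperone HSCB and its HSP70 partner release the cluster to the glutaredoxin GLRX5, ISCA1 and ISCA2 take part in forming the larger 4-iron 4-sulfur clusters, and NFU1 and BOLA3 deliver these to enzymes such as lipoyl synthase. Heart muscle, which is rich in respiratory complexes, is affected in inherited defects of several of these genes.

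Of the 9 genes, Nfu1 alone passed the test between hMut and Ctrl. It rose 1.12-fold, a log2 difference of 0.17, and the other 8 did not pass. The call rule was an adjusted p under 0.05 in the quasi-likelihood test of edgeR, adjusted after Benjamini and Hochberg over the 16195 genes tested. The same rule called 749 of those genes, or 4.62% (3.48% higher and 1.14% lower in hMut). Against this background the members' count rests on a single gene. At an unadjusted p under 0.05 there were 5 of 9 members, Nfu1, Lyrm4 and Hscb with higher values and Nfs1 and Isca1 with lower values, against 25.8% of all genes tested. No member had groups that did not overlap, which 0.605% of all genes did. The median log2 fold change was -0.02 over the members and 0.00 over all genes, and the median absolute log2 fold change was 0.14 over the members and 0.13 over all genes.

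Total counts lay between 34425783 and 46486964 in Ctrl and between 32915159 and 40175122 in hMut, and each member had at least 276 counts in each library. Transcripts encoded by mitochondrial DNA took 23.5 to 30.9% of the counts in Ctrl and 15.9 to 23.0% in hMut. Polg itself, whose transcripts from the cDNA and from the mutated gene cannot be told apart in this count, stood at 57.9 ± 6.08 CPM (counts scaled by library size; SD, n = 9) in hMut and 34.7 ± 7.31 (SD, n = 8) in Ctrl. Its log2 fold change was 0.74 (SE 0.10; edgeR adjusted p = 0.000448). The 10 cardiomyocyte markers were abundant in all hearts, with summed levels of 47853 to 57196 CPM in Ctrl and 36125 to 55867 in hMut. Macrophage markers summed to 135 to 187 CPM in Ctrl and 155 to 576 in hMut. The cardiomyocyte sum was below all Ctrl hearts in 5 of 9 hMut hearts, and the macrophage sum above all Ctrl hearts in 4 of 9. hMut 6 and hMut 9 had the 2 lowest cardiomyocyte sums of the 17 hearts (38838 and 36125 CPM) and the 2 highest macrophage sums (576 and 322 CPM). Endothelial markers summed to 734 to 936 CPM in Ctrl and 817 to 1118 in hMut, with 1 of 6 (Kdr) higher, and fibroblast markers to 702 to 788 and 696 to 1185 CPM. The endothelial sum was above all Ctrl hearts in 4 of 9 hMut hearts. The fibroblast sum was above them in 5 and below them in 1. The 2 highest fibroblast sums were again those of hMut 6 and hMut 9 (1185 and 995 CPM). Lymphoid sums were 2.13 to 40.5 and 4.80 to 52.0 CPM, smooth muscle sums 72.8 to 200.5 and 121 to 195, and erythroid sums 222 to 1235 and 255 to 971, with 0 calls in each. The atrial markers Myl7 and Sln and the skeletal myosins Myh1, Myh2 and Myh4 were too low to be tested. Of the 2 tested genes of the skeletal list, Acta1 was higher in hMut (log2 fold change 1.31; edgeR adjusted p = 0.0385). Ckm had a negative estimate and was not called (-0.23; edgeR adjusted p = 0.207). Values of the members that rest on hMut 6 and hMut 9, and calls in the surrounding lists, are therefore given with and without them. In bulk tissue, fewer cells of a type and less RNA per cell cannot be told apart.

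Promoters are shown for Nfu1, the member that rose, for Nfs1, the member with the lowest log2 fold change, and for Isca1, whose window held the most kinds of motif. RefSeq promoters on GRCm38.p6, from 250 bases before to 50 bases after the start of transcription, were found for 7 of the 9 genes, but not for Iscu and Hscb. Capitals mark matches, on either strand, to motifs searched by their letters: NRF1 (GCGC, any base, TGCGC), ETS (CCGGAAG), ERR (AAGGTCA) and NF-Y (CCAAT). Each sequence is given 5′ to 3′ on the strand of its gene.
Nfu1, chr6:87009586-87009885, plus strand: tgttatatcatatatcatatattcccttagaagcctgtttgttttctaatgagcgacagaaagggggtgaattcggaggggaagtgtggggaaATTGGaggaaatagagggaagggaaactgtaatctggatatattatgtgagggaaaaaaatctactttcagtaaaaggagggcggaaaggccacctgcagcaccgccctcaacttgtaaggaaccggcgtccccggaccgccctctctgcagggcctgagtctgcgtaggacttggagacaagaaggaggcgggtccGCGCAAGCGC
Nfs1, chr2:156144137-156144436, minus strand: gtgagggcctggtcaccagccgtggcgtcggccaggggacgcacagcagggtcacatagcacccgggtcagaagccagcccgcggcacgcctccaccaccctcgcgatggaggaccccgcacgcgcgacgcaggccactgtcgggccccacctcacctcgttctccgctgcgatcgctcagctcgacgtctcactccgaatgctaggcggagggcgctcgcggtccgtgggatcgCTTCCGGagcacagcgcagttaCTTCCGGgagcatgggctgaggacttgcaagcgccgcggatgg
Isca1, chr13:59769740-59770039, minus strand: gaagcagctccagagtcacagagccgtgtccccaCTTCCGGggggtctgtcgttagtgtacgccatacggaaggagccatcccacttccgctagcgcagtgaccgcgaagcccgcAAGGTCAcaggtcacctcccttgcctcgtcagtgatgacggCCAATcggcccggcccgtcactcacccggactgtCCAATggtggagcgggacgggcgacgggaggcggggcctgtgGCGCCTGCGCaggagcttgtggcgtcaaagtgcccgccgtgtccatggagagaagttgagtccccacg

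The Nfu1 window held 1 NRF1 match, beginning at base 41 after the start, and 1 NF-Y match. The Nfs1 window held 2 ETS matches close to the start and no NF-Y match. Isca1 had the most kinds of match, with 1 NRF1, 1 ETS, 1 ERR and 2 NF-Y matches. Glrx5 held 4 NF-Y matches, Isca2 held 1 ETS and 2 NF-Y matches, the 3 listed starts of Bola3 held NF-Y matches or none, and Lyrm4 held none of the motifs. Among all 32851 promoters of the same length, 4.60% held the NRF1 letters, 8.86% ETS, 4.72% ERR and 37.4% NF-Y. The letters of the ATF4 composite element (TGATGNAA, in 3.97% of promoters) and the E-box (CACGTG, in 7.15%) were searched on both strands too and were in none of the members' windows. These matches are descriptions of the sequence, and binding was not measured.

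**Figure D1:**
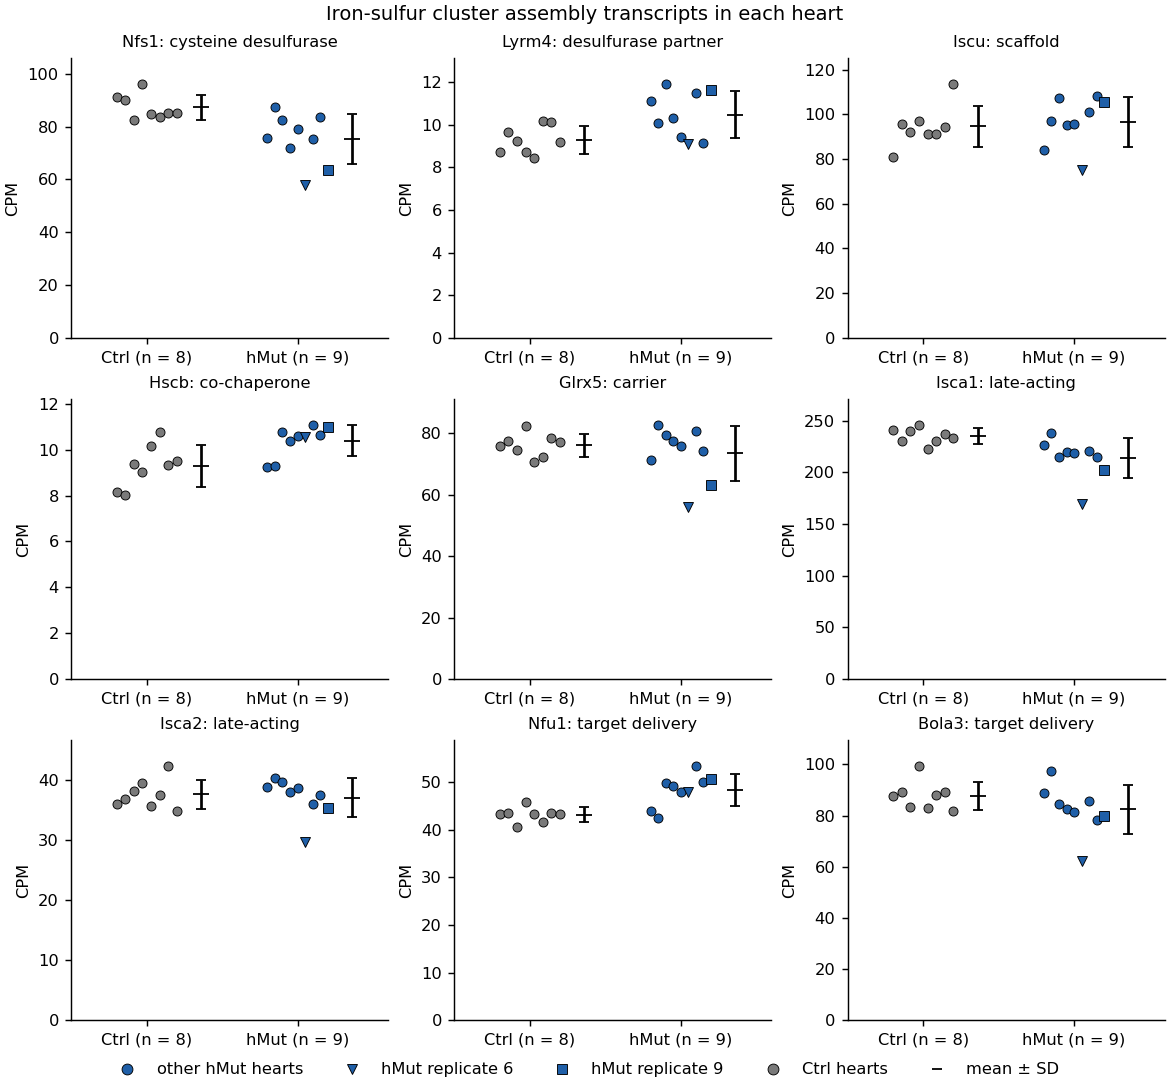
Level of each member in CPM (y axis from 0) in the 8 Ctrl and 9 hMut hearts, with 1 point per heart, mean ± SD, and separate symbols for hMut replicates 6 and 9. Nfu1 lies above all Ctrl hearts in 7 of 9 hMut hearts, and Nfs1 lies below all of them in 7 of 9.

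The first step is the release of sulfur, which needs Nfs1 and Lyrm4. Nfs1 (ENSMUSG00000027618, chr2:155965559-155986106, minus strand, GRCm39) had 57.9, 75.9 and 87.4 CPM as the lowest, median and highest of the hMut hearts, and 82.4, 85.2 and 96.3 CPM in Ctrl. In 7 of 9 hMut hearts it was under all Ctrl hearts, although in hMut 3 the gap was below 0.1 CPM, and the remaining 2 hMut hearts (hMut 2 and hMut 8) lay in the Ctrl range. The means were 75.2 ± 9.55 CPM (SD, n = 9) and 87.4 ± 4.73 (SD, n = 8), with a log2 fold change of -0.22 (SE 0.07; 95% interval -0.36 to -0.07). Nfs1 did not pass (edgeR adjusted p = 0.0727). Without hMut 6 and hMut 9 its log2 fold change was -0.14, and the adjusted p was 0.116. DESeq2 gave a log2 fold change of -0.22 with an adjusted p of 0.0463, and limma-voom with sample weights gave -0.16 with 0.0298, so the call depends on the tool. Within the hearts identified as female from Xist and Y-linked counts, Nfs1 was 72.1 to 75.9 CPM in the 2 hMut hearts and 83.8 to 85.2 CPM in the 3 Ctrl hearts. In the male hearts the groups overlapped, with 57.9 to 87.4 CPM in 7 hMut hearts and 82.4 to 96.3 CPM in 5 Ctrl hearts.

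Lyrm4 (ENSMUSG00000046573, chr13:36162378-36301509, minus strand), the small partner that stabilizes the desulfurase, was 9.12, 10.3 and 11.9 CPM at its lowest, median and highest in hMut and 8.44, 9.21 and 10.2 CPM in Ctrl. Above all Ctrl hearts were 5 of 9 hMut hearts, and the other 4 lay within the Ctrl range. The mean was 10.5 ± 1.11 CPM (SD, n = 9) against 9.29 ± 0.655 (SD, n = 8), a log2 fold change of 0.17 (SE 0.07; 95% interval 0.03 to 0.32), which did not pass (edgeR adjusted p = 0.127). The 2 genes of the desulfurase complex thus had estimates of opposite sign.

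Iscu (ENSMUSG00000025825, chr5:113910809-113916349, plus strand), the scaffold, differed between the groups by less than the spread of hearts. Its lowest, median and highest were 75.2, 97.0 and 108 CPM in hMut and 80.9, 93.3 and 114 CPM in Ctrl, so that only hMut 6 lay outside the Ctrl range. The log2 fold change was 0.03 (SE 0.07; 95% interval -0.12 to 0.18; edgeR adjusted p = 0.812). Hscb (ENSMUSG00000043510, chr5:110976936-110987643, minus strand), the cochaperone that acts on the loaded scaffold, was 9.26, 10.6 and 11.1 CPM in hMut and 8.02, 9.36 and 10.8 CPM in Ctrl. The Ctrl range covered 7 of 9 hMut hearts, and the other 2 were above it. With means of 10.4 ± 0.676 CPM (SD, n = 9) and 9.29 ± 0.929 (SD, n = 8), its log2 fold change was 0.16 (SE 0.06; 95% interval 0.03 to 0.29; edgeR adjusted p = 0.129).

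Glrx5 (ENSMUSG00000021102, chr12:104998947-105009165, plus strand), which carries the cluster onward, was 55.8, 75.7 and 82.7 CPM in hMut and 70.4, 76.4 and 82.2 CPM in Ctrl. The medians were close, 1 hMut heart was just above all Ctrl hearts, and the 2 below them were hMut 6 (55.8 CPM) and hMut 9 (63.0 CPM). Its log2 fold change was -0.05 (SE 0.07; 95% interval -0.19 to 0.09; edgeR adjusted p = 0.641), and 0.03 without those hearts.

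Isca1 (ENSMUSG00000044792, chr13:59903223-59917624, minus strand) and Isca2 (ENSMUSG00000021241, chr12:84820025-84821862, plus strand) encode partner proteins of the late step. Isca1 was 169, 218 and 238 CPM in hMut and 223, 235 and 246 CPM in Ctrl, with 7 of 9 hMut hearts below all Ctrl hearts and none above. The means were 214 ± 19.3 CPM (SD, n = 9) and 235 ± 7.44 (SD, n = 8), a log2 fold change of -0.14 (SE 0.05; 95% interval -0.25 to -0.03), which did not pass (edgeR adjusted p = 0.120). Without hMut 6 and hMut 9 the log2 fold change of Isca1 was -0.08. Isca2 was 29.6, 37.9 and 40.3 CPM in hMut and 34.9, 37.1 and 42.3 CPM in Ctrl, and only hMut 6 was outside the Ctrl range. Its log2 fold change was -0.02 (SE 0.06; 95% interval -0.14 to 0.10; edgeR adjusted p = 0.836), and 0.03 without the 2 hearts.

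Nfu1 (ENSMUSG00000029993, chr6:86986218-87005443, plus strand), the late carrier, was 42.5, 49.3 and 53.4 CPM at its lowest, median and highest in hMut and 40.6, 43.3 and 45.9 CPM in Ctrl. It was above all Ctrl hearts in 7 of 9 hMut hearts, hMut 6 (47.8 CPM) included, while hMut 1 (43.9 CPM) and hMut 2 (42.5 CPM) lay within the Ctrl range. The means were 48.3 ± 3.38 CPM (SD, n = 9) and 43.1 ± 1.57 (SD, n = 8), a log2 fold change of 0.17 (SE 0.04; 95% interval 0.07 to 0.26; edgeR adjusted p = 0.0374). Among the 749 called genes only 2.67% had a smaller absolute log2 fold change, and the median of called genes was 0.41. The call rested close to the threshold. It held in 4 of the 17 fits that leave out 1 heart, those without Ctrl 4, hMut 1, hMut 2 or hMut 8, with log2 fold changes of 0.15 to 0.19 and adjusted p of 0.00770 to 0.0761 over all 17. Without hMut 6 and hMut 9 the log2 fold change was 0.16 and the adjusted p was 0.0814, and with sex as a covariate they were 0.16 and 0.0553. In the hearts identified as female, Nfu1 was 43.9 to 49.3 CPM in hMut and 41.5 to 43.6 CPM in Ctrl. In the male hearts it was 42.5 to 53.4 CPM in hMut and 40.6 to 45.9 CPM in Ctrl, so that the groups overlapped.

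Bola3 (ENSMUSG00000045160, chr6:83326129-83337118, plus strand), which works beside Nfu1, was 62.4, 82.4 and 97.6 CPM in hMut and 81.9, 87.9 and 99.5 CPM in Ctrl. In 4 of 9 hMut hearts it was below all Ctrl hearts, and in the other 5 within their range. Its log2 fold change was -0.09 (SE 0.07; 95% interval -0.23 to 0.05; edgeR adjusted p = 0.374). It was -0.048 without hMut 6 and -0.035 without hMut 6 and hMut 9. The late carriers Nfu1 and Bola3 therefore had estimates of opposite sign, of which that of Nfu1 passed.

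**Figure D2:**
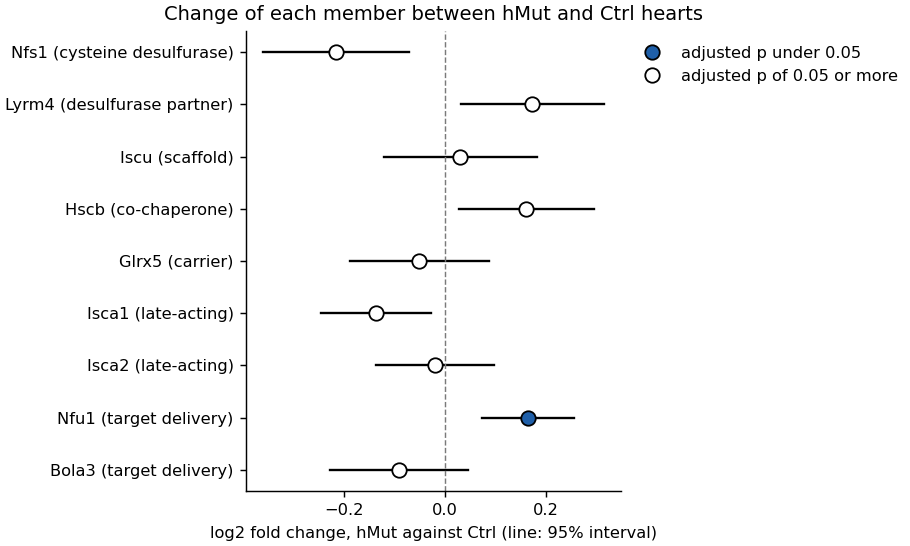
Log2 fold change of each member, hMut against Ctrl (x axis), with its 95% interval as a line and filled points for an adjusted p under 0.05. Nfu1, at 0.17, is the filled point, and the estimates run from -0.22 for Nfs1 to 0.17 for Lyrm4.

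Some genes overlap others in the annotation, and the sources used here do not say whether counting used the strand. Nfs1 shares 148 bases with the antisense gene Romo1, Lyrm4 shares 115 bases with the antisense Fars2 and 660 bases with Tmed10-ps on its own strand, and Isca1 shares 314 bases with the antisense Etohd2. On the same strand, Nfs1 also shares 3454 bases with Gm28036, Lyrm4 110802 with Gm48765 and Isca1 10876 with Gm49354. Lyrm4 also overlaps Gm48770 and Gm18132 on the other strand. These further genes had at most 2 counts in a library. Shared bases are given over gene spans, introns included. Reads in shared bases cannot be told apart. Iscu, Hscb, Glrx5, Isca2, Nfu1 and Bola3 overlap no other gene of the table.

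Levels of different genes were compared per kilobase of exon. In Ctrl, Iscu was highest at 43.4 ± 4.22 CPM per kilobase (SD, n = 8), followed by Bola3 at 27.3 ± 1.73 and Nfs1 at 24.2 ± 1.31. Isca1 followed at 22.0 ± 0.697, then Glrx5 at 20.6 ± 1.01 and Isca2 at 20.4 ± 1.31, each of which lay within the other's SD. Hscb at 10.3 ± 1.03 and Nfu1 at 8.94 ± 0.325 came next. Lyrm4 was lowest at 4.45 ± 0.314. The scaffold transcript was thus the most abundant of the 9 per kilobase and the desulfurase partner the least. In hMut the order began with Iscu (44.4 ± 5.04; SD, n = 9) and ended with Hscb (11.5 ± 0.747), Nfu1 (10.03 ± 0.700) and Lyrm4 (5.02 ± 0.533). Between them came Bola3 (25.7 ± 2.94), and the means of Nfs1 (20.8 ± 2.64), Isca2 (20.1 ± 1.76), Isca1 (20.01 ± 1.81) and Glrx5 (19.9 ± 2.39) lay within one another's SD. The lengths cover exons of all annotated isoforms, which lowers the value of genes with long or many isoforms.

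As a description, 8 of the 9 members had a higher coefficient of variation among hMut hearts than among Ctrl hearts. Without hMut 6, 6 of 9 did so. The share of all tested genes was not computed, so the count is not a trait particular to the members. In other lists, Ndufs1 was also higher in hMut (19.7% against 6.81%), and Gfer was lower (8.44% against 10.1%). Among the members, the coefficient was 12.7% in hMut (9.68% without hMut 6) and 5.41% in Ctrl for Nfs1, and 12.0% (8.32%) and 4.87% for Glrx5. For Isca1 it was 9.02% in hMut, 4.68% without hMut 6, and 3.17% in Ctrl. Isca2 at 8.71% in hMut fell to 4.55% without that heart, against 6.42% in Ctrl, and Iscu at 11.4% to 8.06%, against 9.72%. For Hscb it was the other way, 6.50% in hMut and a higher value in Ctrl. hMut 6 was the lowest of its group for 7 of the 9 genes and below all Ctrl hearts for 6, and its mean deviation from the Ctrl means over the 9 genes was -0.26 on the log2 scale. The mean deviations of the other hMut hearts were -0.02 to 0.09 and those of the Ctrl hearts -0.05 to 0.07.

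Within hMut 6 the genes did not deviate alike. Log2 deviations from the Ctrl mean were -0.59 for Nfs1, -0.49 for Bola3, -0.47 for Isca1, -0.44 for Glrx5, -0.34 for Isca2 and -0.32 for Iscu, while Lyrm4 was at -0.02, Nfu1 at 0.15 and Hscb at 0.19. hMut 9 had a mean deviation of -0.02 made of opposite parts, with Nfs1 at -0.46, Glrx5 at -0.27 and Isca1 at -0.21 against Hscb at 0.25 and Lyrm4 at 0.33. In both hearts Nfs1, Glrx5 and Isca1 were below, and Nfu1 and Hscb above, their Ctrl means. These hearts had the 2 lowest cardiomyocyte and atrial marker sums and the 2 highest macrophage, fibroblast and skeletal muscle sums. The atrial sum rests on Myl4 and Stard10 and the skeletal sum on Acta1 and Ckm, the only tested genes of those lists. Neither sum is read as an amount of atrial or skeletal tissue. In 5 of 9 hMut hearts the cardiomyocyte sum was below all Ctrl hearts. The part of cell composition in the members' values was not tested.

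**Figure D3:**
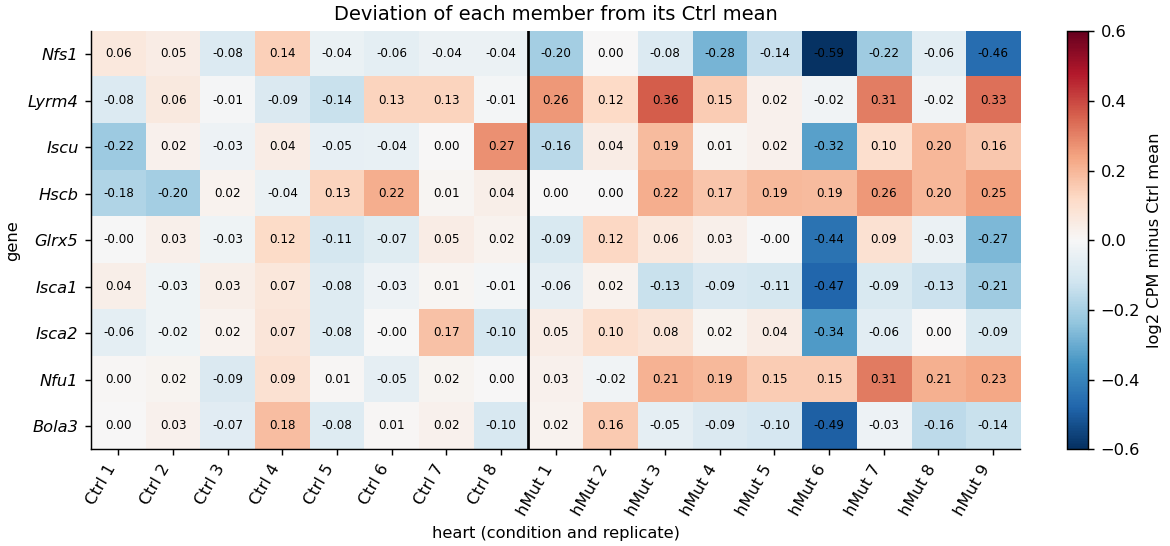
Deviation of each member (rows) from its Ctrl mean in each heart (columns), in log2 CPM. hMut 6 has the strongest negative values, down to -0.59 for Nfs1, and hMut 9 has both negative and positive values.

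Ratios of counts between members of the same heart do not depend on how libraries are scaled, and are given as a description because they were chosen after the values were seen. The Lyrm4 to Nfs1 ratio was 0.141 ± 0.0234 (SD, n = 9) in hMut, with a range of 0.109 to 0.183, and 0.107 ± 0.0109 (SD, n = 8) in Ctrl, with a range of 0.0906 to 0.121. It lay above all Ctrl hearts in 6 of 9 hMut hearts. The Nfu1 to Nfs1 ratio was 0.654 ± 0.109 (range 0.486 to 0.825) in hMut and 0.494 ± 0.0151 (range 0.473 to 0.512) in Ctrl, and 8 of 9 hMut hearts were above all Ctrl hearts. This ratio was highest in hMut 6 and hMut 9, at 0.825 and 0.796, and the difference between the group means fell from 0.160 to 0.116 without them. The Isca1 to Isca2 ratio ran the other way, with 5.77 ± 0.197 in hMut and 6.27 ± 0.342 in Ctrl, and 7 of 8 Ctrl hearts above all hMut hearts, although Ctrl 6 and hMut 7 were both at 6.144. Its difference, hMut minus Ctrl, was -0.50 with all hearts and -0.49 without hMut 6 and hMut 9.

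**Figure D4:**
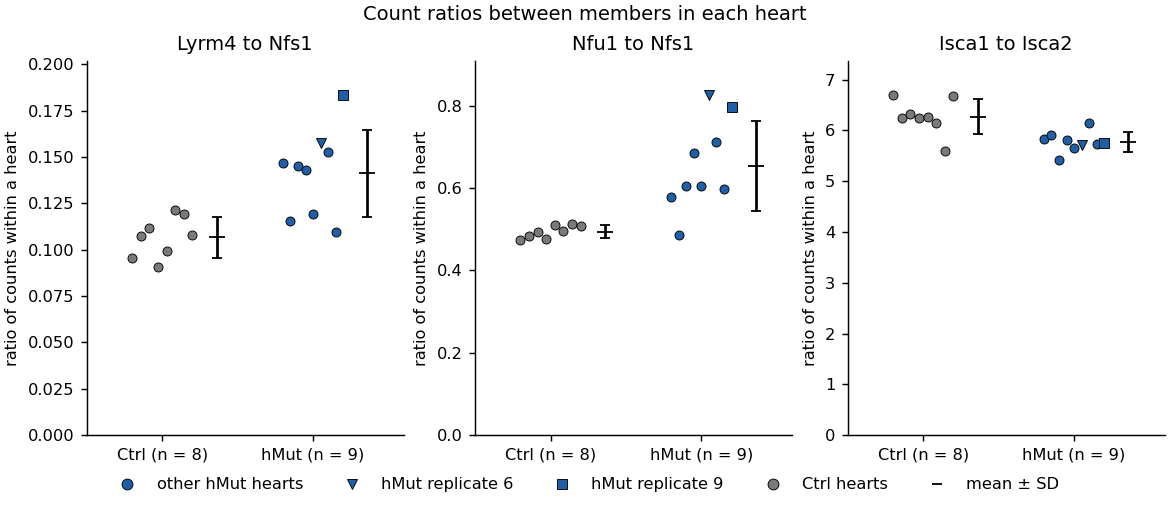
Ratio of counts within each heart (y axis from 0) for Lyrm4 to Nfs1, Nfu1 to Nfs1 and Isca1 to Isca2, with 1 point per heart and mean ± SD. The Nfu1 to Nfs1 ratio of 8 of 9 hMut hearts lies above all Ctrl hearts, and the Isca1 to Isca2 ratio of 7 of 8 Ctrl hearts lies above all hMut hearts, 1 of them by less than can be seen.

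Genes whose profile over the 17 hearts was most like that of Nfu1 were sought among 8648 genes with a mean of at least 10 CPM, by the mean absolute difference of centred log2 CPM. The closest were Pdap1 (0.041), Btf3 (0.044), a subunit of the complex that binds nascent polypeptides, and the Golgi stacking protein gene Gorasp2 (0.048), where Nfu1's own mean absolute deviation was 0.10. Of these Btf3 rose (log2 fold change 0.21, SE 0.05; edgeR adjusted p = 0.0210), from 100 ± 1.38 CPM (SD, n = 8) to 116 ± 10.4 (SD, n = 9), but had an adjusted p of 0.0539 without hMut 6 and hMut 9. Pdap1 at 0.12 (adjusted p = 0.0622) and Gorasp2 at 0.11 (0.0687) did not pass in the same edgeR test. These genes were picked for likeness to Nfu1 in the same hearts. A rise in hMut is therefore in part built into the choice and is no separate evidence.

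The other mitochondrial assembly genes, among them the ferredoxins and their reductase, and the chaperone Hspa9, gave no call. Of 13 listed, 12 were tested (Fdx2 had 0 to 6 counts), 0 passed in edgeR's test, 2 had an unadjusted p under 0.05, and DESeq2 called 0. For the counts of this and the following lists, the shares over all genes tested in edgeR were 4.62% called and 25.8% at an unadjusted p under 0.05. Of the 12, 4 had positive and 8 had negative log2 fold changes, with a median of -0.07. Gfer, a sulfhydryl oxidase of the intermembrane space and one of the genes with the smallest p, was 14.8 ± 1.25 CPM in hMut and 13.2 ± 1.33 in Ctrl (log2 fold change 0.16, SE 0.07; edgeR adjusted p = 0.139).

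Of the 11 cytosolic assembly genes, 2 rose, 0 fell and 9 did not pass, with a median log2 fold change of 0.00. Bola2, the cytosolic relative of Bola3 that partners the glutaredoxin GLRX3, rose from 7.38 ± 0.677 to 9.05 ± 0.943 CPM (log2 fold change 0.29, SE 0.07; edgeR adjusted p = 0.0304) and was above all Ctrl hearts in 6 of 9 hMut hearts. Ciao2b, a subunit of the complex that hands clusters to target proteins, rose from 26.1 ± 1.68 to 31.3 ± 4.03 CPM (0.26, SE 0.07; edgeR adjusted p = 0.0481), with 7 of 9 hMut hearts above all Ctrl hearts. Neither passed without hMut 6 and hMut 9, with adjusted p of 0.0702 for Bola2 and 0.118 for Ciao2b, and of the 17 fits that leave out 1 heart Bola2 passed in 10 and Ciao2b in 2. Bola2 shares 384 bases with Slx1b and 26 bases with Coro1a, both on the other strand. Coro1a had a median of 456 counts per library and up to 2623.

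The 15 mitochondrial proteins that hold a cluster gave no call in edgeR, 5 unadjusted p under 0.05 and 0 calls in DESeq2. Their log2 fold changes were negative for 13 of the 15, with a median of -0.12. Summed over the list, hMut 6 had 4897 CPM and hMut 9 had 4696 CPM, the lowest hMut value. The hMut median of this sum was 6515 CPM, within the Ctrl range of 6153 to 7507 CPM. Ndufs1, the largest subunit of complex I, was 594 ± 117 CPM in hMut and 716 ± 48.8 in Ctrl (log2 fold change -0.27, SE 0.10; edgeR adjusted p = 0.125). Fech, the ferrochelatase that completes heme, was 153 ± 17.5 and 174 ± 12.4 CPM (-0.18, SE 0.07; edgeR adjusted p = 0.108). With 1 heart left out, the log2 fold change was -0.32 to -0.21 for Ndufs1 and -0.21 to -0.15 for Fech. When libraries were scaled on the cardiomyocyte markers, Fech had a log2 fold change of 0.04 and Ndufs1 of -0.06, so that the sign of Fech, and the size of both, depended on the scaling.

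Lipoate is made by an enzyme that needs clusters delivered by NFU1. The 12 genes of its synthesis and of the lipoylated complexes gave 0 calls in edgeR and 1 call in DESeq2. In edgeR 3 of the 12 had an unadjusted p under 0.05, against 25.8% of all genes tested. Of the 12, 11 had negative log2 fold changes, with a median of -0.12. Summed over the list, hMut 6 had 1550 CPM, the lowest hMut value, and hMut 9 had 1705 CPM. The hMut median of this sum was 2189 CPM, and the Ctrl range was 2211 to 2506 CPM. Oxsm, which elongates the fatty acid precursor of lipoate, was 29.1 ± 4.32 CPM in hMut and 34.7 ± 1.83 in Ctrl (log2 fold change -0.26, SE 0.08; edgeR adjusted p = 0.0626). It was the gene called by DESeq2 (-0.26, adjusted p = 0.0333) and also passed in limma-voom with sample weights (-0.23, adjusted p = 0.0095). With libraries scaled on the cardiomyocyte markers, its log2 fold change was -0.034 (edgeR adjusted p = 0.616). Dld, the dehydrogenase subunit shared by the lipoylated complexes, was 509 ± 76.9 and 586 ± 23.7 CPM (-0.20, SE 0.08; edgeR adjusted p = 0.125). Each was below all Ctrl hearts in 7 of 9 hMut hearts, and Oxsm shares 529 bases with Ngly1 on the other strand. The list shares Lias, the lipoyl synthase, with the mitochondrial clients. The 10 cardiomyocyte markers also had negative log2 fold changes in all 10, of -0.43 to -0.02, and 0 passed in edgeR. The part of cardiomyocyte RNA in the values of both lists was not tested.

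Among 19 cytosolic and nuclear proteins that hold a cluster, 1 rose and 1 fell. Abce1, the ribosome recycling factor, rose from 77.2 ± 4.62 to 86.6 ± 5.04 CPM (log2 fold change 0.17, SE 0.04; edgeR adjusted p = 0.0400). Dpyd, the pyrimidine-degrading dehydrogenase, fell from 15.6 ± 1.31 to 12.6 ± 1.66 CPM (-0.31, SE 0.08; edgeR adjusted p = 0.0269), but did not pass when libraries were scaled on the cardiomyocyte markers (-0.089; adjusted p = 0.406). The groups overlapped in both genes, since 7 of 9 hMut hearts were above all Ctrl hearts for Abce1 and 5 of 9 below them for Dpyd. Without hMut 6 and hMut 9 neither passed (adjusted p of 0.0995 for Abce1 and 0.0668 for Dpyd), and with 1 heart left out Abce1 passed in 7 and Dpyd in 14 of 17 fits.

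The genes that supply the raw materials held the largest difference of any list. Of 8 listed genes of cysteine supply and mitochondrial iron entry, 7 were tested (Cbs had 1 to 96 counts), 2 rose and 1 fell. Slc7a11, the cystine importer, was at 0.128 ± 0.107 CPM in Ctrl, with 1 to 11 counts per library, and at 3.12 ± 1.56 CPM in hMut, with 27 to 234 counts. All 9 hMut hearts were above all Ctrl hearts, and the fitted log2 fold change was 4.58 (SE 0.46; edgeR adjusted p = 9.7e-06), a size that depends on the small Ctrl counts. Slc25a39, the mitochondrial glutathione carrier, rose from 93.6 ± 5.99 to 112 ± 11.6 CPM (0.26, SE 0.06; edgeR adjusted p = 0.0206). Slc25a28, which imports iron, fell from 22.1 ± 2.51 to 18.8 ± 1.20 CPM (-0.23, SE 0.06; edgeR adjusted p = 0.0434), but its log2 fold change was 0.01 when libraries were scaled on the cardiomyocyte markers. Of the 3, Slc7a11 and Slc25a39 passed without hMut 6 and hMut 9, and Slc25a28 did not (adjusted p = 0.0546). With 1 heart left out, Slc7a11 and Slc25a39 passed in all 17 fits and Slc25a28 in 7.

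**Figure D5:**
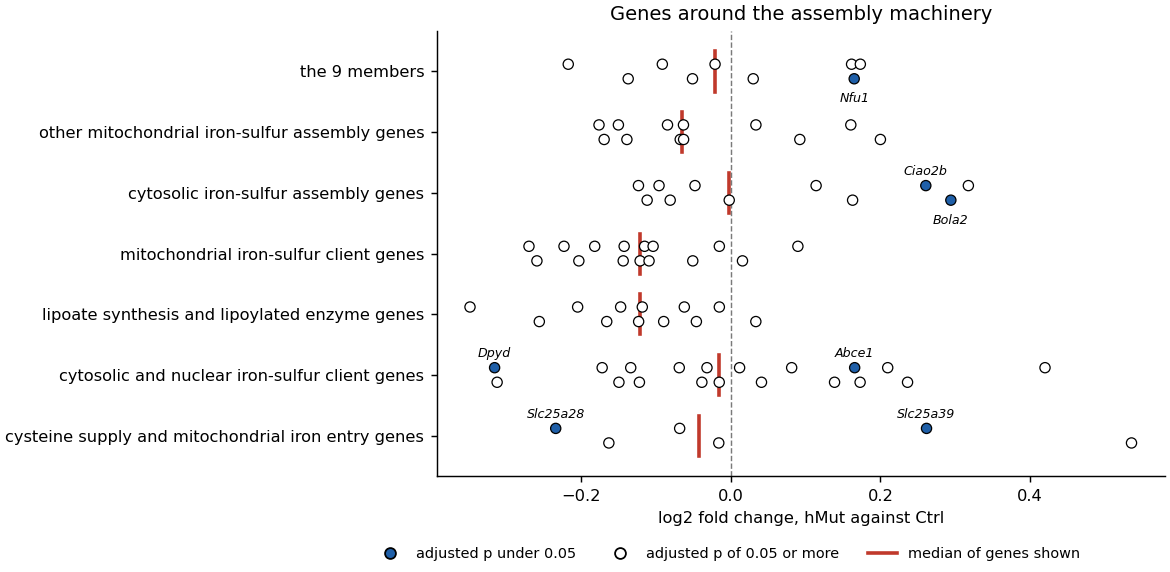
Log2 fold change, hMut against Ctrl (x axis), of the 9 members and of the tested genes of 6 surrounding lists. Each has 1 point per gene, filled for an adjusted p under 0.05, and a line at the median of the genes shown. Slc7a11, at 4.58, is not drawn and is left out of the line of its list. Mitochondrial client and lipoate genes have medians of -0.12 with no filled point.

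The scaling of the libraries sets the sign of several members. Relative to the cardiomyocyte markers, the median of all genes moved by 0.24 on the log2 scale, 6378 genes were called higher and 102 lower (98.4% higher, against 75.3% with the main scaling), and all 9 members had positive log2 fold changes. Under that scaling 6480 of the 16195 genes tested passed in edgeR's test. Among them were 7 members, from 0.14 for Bola3 to 0.41 for Lyrm4, Hscb and Nfu1, while Nfs1 at 0.01 and Isca1 at 0.09 did not pass. Bola3, Glrx5 (0.17) and Isca2 (0.21) passed although they lay below the median of all genes, 0.24. The order among the members, with Nfu1, Lyrm4 and Hscb highest and Nfs1 lowest, was that of the main fit. A change of scaling moves all genes by a similar amount, so the kept order is no separate evidence.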

How the data were processed

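Hearts of 8 Ctrl and 9 hMut mice were grouped by their titles. Reads of poly(A) libraries were filtered (fastp), aligned (HISAT2 2.2.1, GRCm39) and counted (featureCounts 2.0.6) by the authors, who deposited unscaled counts for each gene. Counts are relative to one another within a library, so a change in abundant transcripts moves the others. Total counts were 32915159 to 46486964 per library. No pair of libraries among 136 was a copy.

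All further values were computed from these counts. CPM used TMM-scaled library sizes, and log2 deviations a prior count of 2. edgeR 4.0.16 (R 4.3.3, glmQLFit and glmQLFTest, filterByExpr, condition only, two-sided) tested 16195 genes, and p-values were adjusted by Benjamini-Hochberg over all of them with a threshold of 0.05. The SE is the absolute log2 fold change over the root of F. Intervals are 95%. The fit was tried on simulated counts. Whether the animals were littermates is not stated, and p-values measure the spread between these hearts. Alternatives used DESeq2 1.42.0, limma 3.58.1, other scalings and filters, a replicate-number block, a sex covariate, and fits without each heart. Leaving out hMut 6 and hMut 9 together was chosen after seeing the data. Sex was assigned from Xist against Y-linked transcripts.

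Members and gene lists were chosen with earlier results of these data known, and the lists were written from general knowledge. All members are named. In each other list the genes past the threshold are named, or else the 2 with the smallest p (1 gene is not reported here), and for Nfu1 the 3 genes of most similar profile. Promoters were searched with Python 3.11.15, and figures were drawn with matplotlib 3.10.9. mtDNA mutation burden and protein levels were not used here.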

Additional observations from a re-analysis of the deposited data

Results flagged for a closer look

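Of 18 groups (9 members in hMut and in Ctrl), 2 held a heart far from the rest, where chance flags about 1 in 20 groups. For Isca2, hMut 6 was low at 29.6 CPM, with the next heart at 35.2 CPM and a group median of 37.9, and the gap was 0.5259 of the range of the group, past the 95% critical value of Dixon's test. For Bola3, Ctrl 4 was high at 99.5 CPM, with the next heart at 89.2 CPM and a group median of 87.9, and the gap was 0.584 of the range, again past that value.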

How the results depend on the processing

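The count of members past the threshold, 1 with edgeR, was 2 with DESeq2, 2 with limma-voom and sample weights, 7 with scaling on cardiomyocyte markers, and 0 with upper quartile scaling, without the filter on low counts, with sex as a covariate and without hMut 6 and hMut 9 together. It ranged from 0 to 2 over fits that leave out 1 heart. Counts over all genes were 1517 with DESeq2, 463 without the filter, 6480 with cardiomyocyte scaling, 2081 with limma-voom and 431 without both hearts, and 395 (without hMut 5) to 1792 (without hMut 2) with 1 heart left out, against 749. The cause of these shifts was not tested.

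The log2 fold change of Nfu1 was 0.15 with upper quartile scaling (adjusted p = 0.0554, edgeR), 0.17 without the filter (0.0965), 0.16 with sex (0.0553) and 0.16 without both hearts, and 0.15 to 0.19 with 1 heart left out. Nfs1 passed with DESeq2 (-0.22) and limma-voom (-0.16), and was -0.25 to -0.18 with 1 heart left out, passing without hMut 2 (adjusted p = 0.0277, edgeR). With cardiomyocyte scaling Lyrm4 was 0.41, Hscb 0.41 and Iscu 0.27, all now past the threshold, and the sign turned for Nfs1 (0.0072), Glrx5 (0.17), Isca1 (0.091), Isca2 (0.21), Bola3 (0.14), Fech (0.044), Dld (0.0129) and Slc25a28 (0.0130). Signs also turned for Glrx5 (0.0139) and Isca2 (0.0146) with limma-voom, for Glrx5 (0.026) and Isca2 (0.031) without both hearts, and with 1 heart left out for Iscu (-0.00041 to 0.071) and Isca2 (-0.037 to 0.015). limma gave hMut 6 and hMut 9 the lowest weights, 0.166 and 0.299.

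For cytosolic assembly genes the count of 2 became 1 with upper quartile scaling, 0 without the filter, 1 without mtDNA-encoded genes, 7 with cardiomyocyte scaling, 1 with sex, 4 with limma-voom and 0 without both hearts (0 to 3 with 1 heart left out). For cytosolic and nuclear clients the count of 2 became 1, 1, 5, 1 and 0 with upper quartile scaling, no filter, cardiomyocyte scaling, sex and both hearts left out (0 to 3 with 1 heart left out). From 0, other mitochondrial assembly genes reached 4 with cardiomyocyte scaling and 1 with limma-voom, mitochondrial clients 3 and 1 (0 to 2 with 1 heart left out), and lipoate genes 3 and 3, with 1 in DESeq2 (0 to 3). Cysteine and iron genes gave 2 to 4 with 1 heart left out.

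Deviations of same-numbered Ctrl and hMut hearts had correlations of -0.23 to 0.34, over 0.1 in 1 of 8 pairs. Whether the numbers pair animals is not stated. These correlations cannot decide it, since paired hearts need not deviate together. With the replicate number as a block, 195 genes and 0 members passed, Nfu1 had a log2 fold change of 0.15 (adjusted p = 0.149, edgeR), and the counts were 0 for cytosolic assembly, 0 for cytosolic and nuclear clients and 1 for cysteine and iron genes. Depth limits Lyrm4 and Hscb most, with as few as 276 and 284 counts in a library.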
